A study of Mus musculus with 19 samples.

Results

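The 39 genes of the 4 mouse Hox clusters were followed through 19 RNA-seq libraries of sorted lin-Sca+cKit+ (LSK) cells, the fraction of mouse blood-forming tissue that holds stem and early progenitor cells. The table names 24210 genes, and the 39 were all those whose RefSeq symbol carries the letter and paralog number of a clustered Hox gene. A gene listed under several RefSeq accessions was represented by the accession with the highest mean count over the libraries. All mice were C57BL/6 by their labels. The WT group (n = 4) was untreated. The IDH2-FLT3 vehicle group (n = 3) carried Idh2 R140Q, a mutant mitochondrial isocitrate dehydrogenase, together with Flt3-ITD, an activated receptor tyrosine kinase, and had received vehicle. The AG-221 group (n = 4) had the same alleles and received AG-221, an inhibitor of mutant IDH2, by gavage on a schedule of 2 doses a day for 4 to 5 weeks. The protocol gives 100 mg/kg for single-agent use and 40 mg/kg for combinations and does not say which was used for a given library. The TET2-FLT3 vehicle group (n = 4) was labelled Tet2-/-;Flt3-IDT, spelled so, and received vehicle. The 5-Aza group (n = 4) had that genotype label and received 5-Aza, a hypomethylating agent, at 5 mg/kg by intraperitoneal injection: once a day for 5 days, repeated every 21 days, 4 cycles in all. The series text also calls that compound Decitabine, a related agent. Both mutant lines were described as having acute myeloid leukaemia, and by label an activating Flt3 allele is present in all 4 mutant groups and in no WT library. The Cre line or promoter, the animals' ages and any pooling are not given in the sources used here, and whether the libraries of a group came from separate animals is not stated, so a p-value here reflects only library-to-library spread, which may be technical.

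Hox genes encode homeodomain transcription factors that set position along the body axis in the embryo. Each cluster is read in order, with low paralog numbers at the 3′ end. In blood, genes of the Hoxa and Hoxb clusters are active in stem and early progenitor cells and are shut off as cells mature, and HOXA9 with its cofactor MEIS1 is a well-known driver of myeloid leukaemia. The clusters are held on by the MLL (KMT2A) complex and off by Polycomb complexes.

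Library totals ran from 9635795 to 20383132 counts, and libraries are named here by the short names of their table columns. V3-2 and V5-2 carry the names of 2 others with a suffix, and whether they came from the same animals as V3 and V5 is not stated. They were also the deepest libraries, at 20140641 and 20383132 counts, ahead of V5 at 15525550. The labels give no batch, so whether this pair was processed apart is not known. Neither the sort nor the Tet2 deletion could be checked from the counts. Kit and Ly6a, the genes of the sort antigens, are listed under 2 and 6 accessions and held 4 and 0 counts over all libraries. Tet2 was read at 58.7 to 156 CPM (counts scaled to library size) in the libraries labelled Tet2-/- with vehicle, against 117 to 145 CPM in WT. A count over the whole gene does not show a deleted exon, so it checks nothing here.

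Of the 39 genes, 15 passed the filter on low counts and are called expressed and tested here. They were 7 of the 11 Hoxa genes on chromosome 6 (Hoxa2 to Hoxa7 and Hoxa9) and 8 of the 10 Hoxb genes on chromosome 11 (Hoxb2 to Hoxb9). None of the 9 Hoxc genes on chromosome 15 and none of the 9 Hoxd genes on chromosome 2 passed. Another 13 genes had counts in at least 1 library and did not pass, among them Hoxc4, Hoxc5, Hoxc6, Hoxc8, Hoxc9, Hoxc10, Hoxc13, Hoxd4, Hoxd9 and Hoxd10. The remaining 11 had no count in any library: Hoxa11, Hoxa13, Hoxb13, Hoxc11, Hoxc12, Hoxd1, Hoxd3, Hoxd8, Hoxd11, Hoxd12 and Hoxd13. The Hoxa cluster held 65.4% of the 28642 Hox counts, the Hoxb cluster 30.0%, the Hoxc cluster 4.63%, and the Hoxd cluster 6 counts in all.

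Low or missing values need care for 5 genes. Hoxa9, Hoxa10, Hoxb3, Hoxd8 and Hoxd11 are listed under several accessions whose exons overlap, and reads on shared exons are dropped where a counter assigns only unambiguous reads. By the GENCODE models, none of the exon bases of either Hoxa9 accession are its own, and its 304 counts over the 19 libraries do not measure its level against other genes. Kit and Ly6a above are also listed under several accessions, so a value near 0 for these 5 Hox genes is not a measure of absence. The other 34 have 1 accession each. Of these, Hoxa3 and Hoxa11 share exon bases with antisense transcripts, and without a stated strand setting reads from both strands cannot be told apart.

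**Figure D1:**
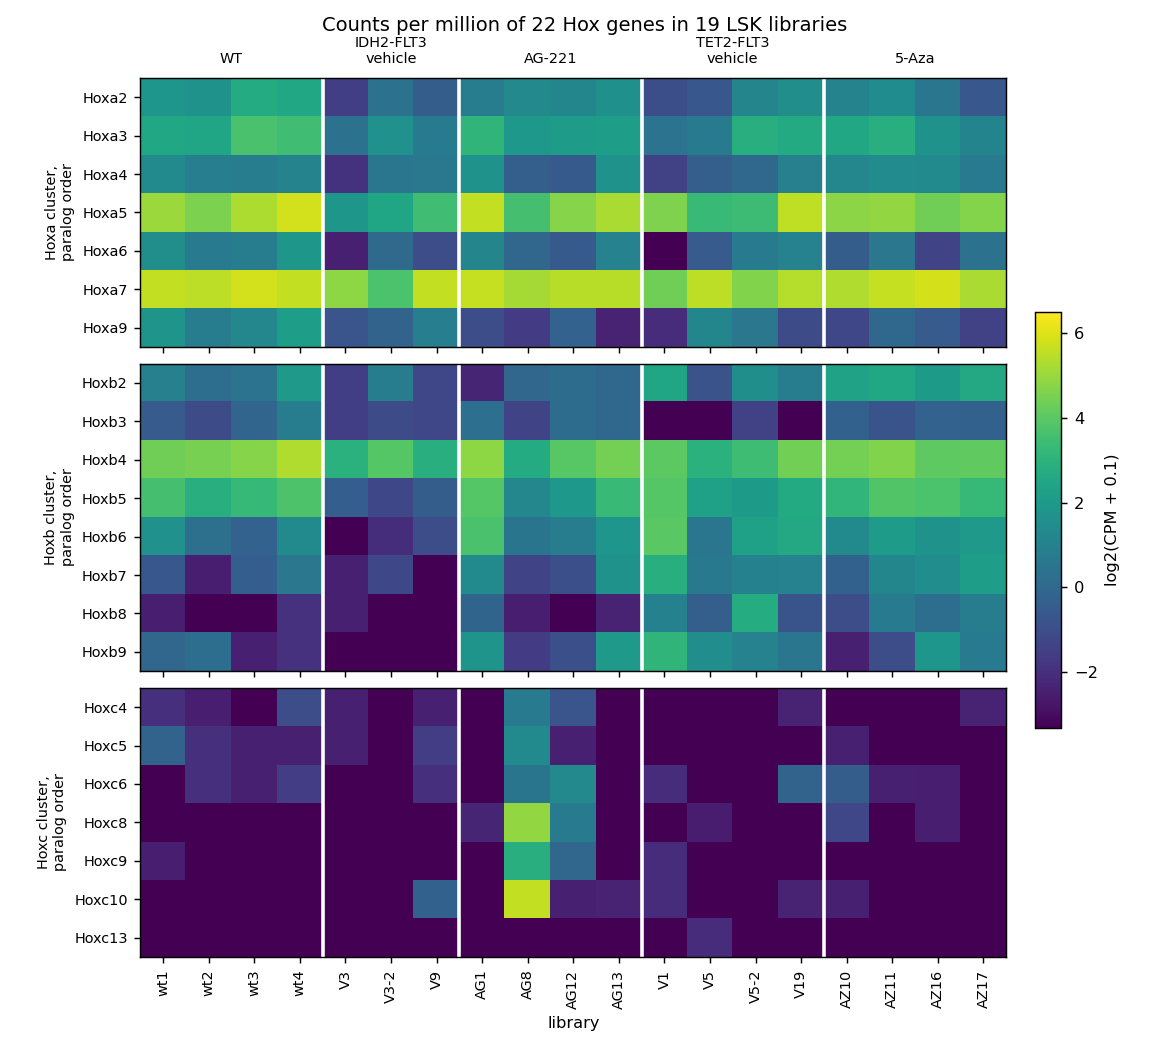
Each cell gives log2(CPM + 0.1) for 1 of 22 Hox genes (rows, the 15 tested genes and the 7 Hoxc genes with counts, ordered by paralog number within each cluster) in 1 of the 19 libraries (columns, with white lines between the 5 groups). The tested Hoxa genes hold counts in every group, Hoxb9 is at 0 in IDH2-FLT3 vehicle, Hoxb5 to Hoxb9 are dark in the 3 IDH2-FLT3 vehicle libraries, and Hoxc genes are bright in library AG8.

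Levels can be set beside each other across genes only per length, so the deposited FPKM values, which are scaled by gene length and library size, were used for that purpose. Hoxa7 had the highest mean FPKM of the 39 genes in every group, at 28.9 ± 3.05 in WT, 14.3 ± 8.59 in the IDH2-FLT3 and 16.7 ± 6.48 in the TET2-FLT3 vehicle arm, 22.3 ± 2.17 with AG-221 and 23.4 ± 5.82 with 5-Aza (mean ± SD). Hoxa5 followed in 4 groups, at 23.4 ± 10.04 FPKM in WT, 16.5 ± 7.97 with AG-221, 11.4 ± 8.59 in TET2-FLT3 vehicle libraries and 13.4 ± 2.34 with 5-Aza, and Hoxb4, a gene known for expanding stem cells when forced on, was next. In IDH2-FLT3 vehicle libraries Hoxb4 and Hoxa5 lay side by side at 3.71 ± 2.04 and 3.38 ± 2.05 FPKM. The ranges of Hoxa7 and Hoxa5 overlapped in WT and AG-221 and in TET2-FLT3 vehicle, and in IDH2-FLT3 vehicle and 5-Aza every Hoxa7 value was above every Hoxa5 value. Hoxb5 followed Hoxb4 in WT at 6.35 ± 1.90 FPKM.

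Summed over the Hoxa cluster, WT libraries held 58.7, 48.2, 70.1 and 87.4 FPKM and IDH2-FLT3 vehicle libraries 14.5, 14.7 and 32.4 FPKM. The Hoxb sums were 20.7, 15.8, 19.1 and 34.7 FPKM in WT and 3.05, 7.83 and 3.51 FPKM in IDH2-FLT3 vehicle. Neither pair of ranges overlapped. In the other 3 groups both sums reached into the WT range in at least 1 library. Hoxb sums were spread widely, from 6.38 to 32.3 FPKM with AG-221, from 8.85 to 29.7 FPKM in the TET2-FLT3 vehicle arm and from 18.4 to 27.3 FPKM with 5-Aza, and AG8 held the lowest of the 12.

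**Figure D2:**
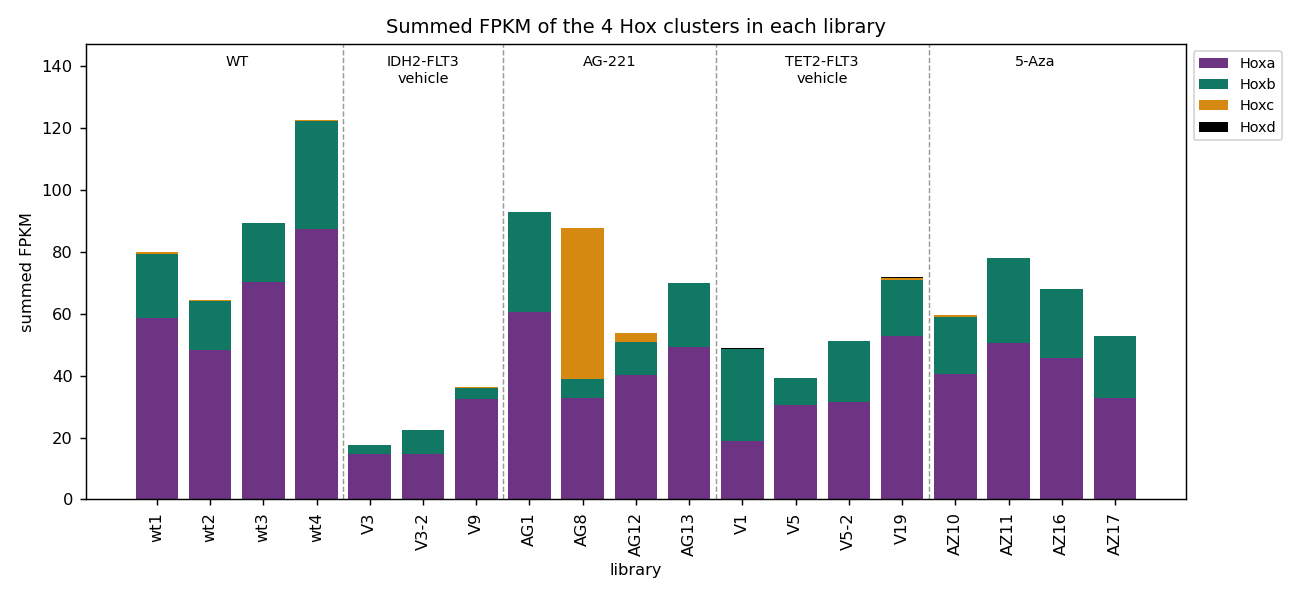
Bars give the summed FPKM of the Hoxa, Hoxb, Hoxc and Hoxd clusters in each of the 19 libraries, grouped by condition and stacked from 0. The 3 IDH2-FLT3 vehicle libraries hold the lowest totals, 17.6 to 36.4 FPKM, and the Hoxc segment reaches 48.5 FPKM in AG8 and 2.95 FPKM in AG12.

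Promoter sequence is shown for 4 genes that differ in what they did: Hoxa5 and Hoxb4 fell in IDH2-FLT3 cells, Hoxb8 rose in TET2-FLT3 cells, and Hoxa7, the highest per length, was called in no comparison. Each window runs from 250 bases before to 50 after the RefSeq transcription start on GRCm38.p6, a later build than the mm9 of the counts. The windows are chr6:52204538-52204837 (minus strand), chr6:52218524-52218823 (minus strand), chr11:96318017-96318316 (plus strand) and chr11:96281655-96281954 (plus strand), printed 5′ to 3′ with CG dinucleotides, the sites of DNA methylation, in capitals.
Hoxa5: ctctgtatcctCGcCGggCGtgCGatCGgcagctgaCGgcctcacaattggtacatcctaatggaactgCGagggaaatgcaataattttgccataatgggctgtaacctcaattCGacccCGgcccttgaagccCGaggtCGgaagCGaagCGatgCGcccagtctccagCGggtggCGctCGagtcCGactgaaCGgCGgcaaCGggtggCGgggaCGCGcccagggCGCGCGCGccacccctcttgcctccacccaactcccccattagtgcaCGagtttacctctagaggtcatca
Hoxa7: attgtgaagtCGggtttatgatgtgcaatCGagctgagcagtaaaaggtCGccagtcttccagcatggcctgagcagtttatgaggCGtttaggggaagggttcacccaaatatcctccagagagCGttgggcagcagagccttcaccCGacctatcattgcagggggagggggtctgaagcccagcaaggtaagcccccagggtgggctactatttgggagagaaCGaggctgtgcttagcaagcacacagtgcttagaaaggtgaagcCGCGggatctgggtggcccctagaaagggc
Hoxb4: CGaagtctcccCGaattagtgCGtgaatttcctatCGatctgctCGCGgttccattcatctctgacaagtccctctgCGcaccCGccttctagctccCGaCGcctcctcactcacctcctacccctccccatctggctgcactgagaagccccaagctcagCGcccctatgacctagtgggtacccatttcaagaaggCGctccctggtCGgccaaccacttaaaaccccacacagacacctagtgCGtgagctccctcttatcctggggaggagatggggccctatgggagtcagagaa
Hoxb8: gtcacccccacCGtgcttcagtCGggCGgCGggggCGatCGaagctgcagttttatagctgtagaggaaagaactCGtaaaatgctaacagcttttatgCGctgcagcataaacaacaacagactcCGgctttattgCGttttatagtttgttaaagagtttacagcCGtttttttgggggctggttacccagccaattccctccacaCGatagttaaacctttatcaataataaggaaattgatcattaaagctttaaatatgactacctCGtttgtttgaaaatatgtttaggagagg
Hoxa5 held 29 CG dinucleotides, Hoxa7 9, Hoxb4 14 and Hoxb8 13, against a median of 7 over the 32851 windows of the RefSeq table. The count in Hoxa5 was above that of 87.1% of these windows. The Hox-Pbx site TGATTNAT and the Meis site TGACAG, searched on both strands, were in none of the 4 windows. They were in 3.22% and 19.2% of all windows. The TATA box TATAAA matched Hoxb8 in 2 places, both on the opposite strand (read as TTTATA in the line above), and none of the other 3. It was in 13.6% of all windows on either strand. The table held windows for 22 of the 39 genes (24 windows, with a median of 14.5 CG). The 8 windows of tested genes had a median of 13.5 CG and the 16 of untested genes 17.5.

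The clusters also hold microRNA genes, shown because Mir196b moved with Hoxa genes below. The mature arms, from RefSeq on GRCm38.p6, fall into a pair of seed groups, with seed bases 2 to 8 in capitals.
miR-196a-5p: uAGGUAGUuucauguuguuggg
miR-196b-5p: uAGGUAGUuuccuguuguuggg
miR-10a-5p: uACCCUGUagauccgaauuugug
miR-10b-5p: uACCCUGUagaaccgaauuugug
miR-196a-5p comes from a hairpin in the Hoxb cluster (Mir196a-1) and another in the Hoxc cluster (Mir196a-2), and miR-196b-5p from the Hoxa cluster. Counted from the 5′ end, they differ by A12C outside the shared seed. miR-10a-5p lies in the Hoxb cluster and miR-10b-5p in the Hoxd cluster, and they differ by U12A. miR-196 is known to cut Hoxb8 mRNA in mouse embryos. Poly(A) RNA libraries do not measure mature microRNAs, so the counts below are reads over the hairpin locus.

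In IDH2-FLT3 vehicle cells, Hox expression of both active clusters was lower than in WT. Of the 15 genes tested 7 fell and none rose: Hoxa2, Hoxa3 and Hoxa5, and Hoxb4, Hoxb5, Hoxb6 and Hoxb9. All 15 estimates were below 0, with a median log2 fold change of -1.997 (the same with Hoxb9 at its bound) against 0.02 over all 11830 accessions tested. Over all accessions, 10.4% were called lower and 10.1% higher at an adjusted p under 0.05 (edgeR's quasi-likelihood test, Benjamini-Hochberg adjusted), so 7 of 15 is above the background of lower calls.

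Within the Hoxa cluster, Hoxa5, a gene that restrains erythroid and favours myeloid output in human progenitors, had 32.6, 23.8, 39.5 and 57.3 CPM in wt1 to wt4. In V3, V3-2 and V9 it had 3.54, 5.43 and 11.1 CPM. Every vehicle library lay below every WT library (log2 fold change -2.52 ± 0.56 (SE), adjusted p = 0.00427). The anterior Hoxa2 stood at 3.52, 3.17, 6.52 and 5.72 CPM in WT and 0.253, 1.202 and 0.641 CPM in the mutant libraries (log2 fold change -2.71 ± 0.71 (SE), adjusted p = 0.0115). For Hoxa3 the values were 5.82, 5.51, 12.8 and 11.04 and 1.18, 3.03 and 1.52 CPM (log2 fold change -2.18 ± 0.65 (SE), adjusted p = 0.0217). Neither gene's groups overlapped. Hoxa7, the most abundant Hox gene per length, did not pass: it had 47.9, 46.4, 57.0 and 48.8 CPM in WT and 28.3, 13.2 and 48.7 CPM in V3, V3-2 and V9 (log2 fold change -0.73 ± 0.35 (SE), adjusted p = 0.141). V9 was inside the WT range for Hoxa7 and the other libraries below it. Hoxa4, Hoxa6 and Hoxa9 had estimates of -0.99, -2.22 and -1.51 and adjusted p of 0.342, 0.0791 and 0.168.

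Within the Hoxb cluster, the central genes Hoxb5 and Hoxb6 were close to empty. Hoxb5, a marker of long-term stem cells in mouse bone marrow, had 12.0, 7.32, 9.58 and 13.4 CPM in WT and 0.675, 0.337 and 0.641 CPM in V3, V3-2 and V9, or 157, 97, 116 and 166 against 8, 7 and 8 counts. The gap was 19.3-fold (log2 fold change -4.27 ± 0.68 (SE), adjusted p = 0.000351), and no library of one group came near the other. Hoxb6 had 3.06, 1.13, 0.743 and 2.42 CPM in WT and 0, 0.144 and 0.401 CPM in the mutant libraries (log2 fold change -3.29 ± 1.01 (SE), adjusted p = 0.0265). Hoxb9, the most 5′ Hoxb gene tested, had 11, 14, 1 and 2 counts in WT and none in the 3 mutant libraries, which puts it at least 8.06-fold lower, with the floor at 3 counts over the group (adjusted p = 0.0443). The more 3′ Hoxb4 kept more of its level, with 20.4, 22.1, 25.8 and 39.8 CPM in WT and 7.67, 15.05 and 6.98 CPM in V3, V3-2 and V9 (log2 fold change -1.44 ± 0.45 (SE), adjusted p = 0.0292). For Hoxb2, Hoxb3, Hoxb7 and Hoxb8 the estimates were -1.33, -1.41, -1.997 and -1.06, with adjusted p from 0.193 to 0.683. Mutant and WT values did not overlap for Hoxb4, Hoxb5, Hoxb6 and Hoxb9. In bulk RNA, fewer cells that express a gene and less RNA per cell cannot be told apart. In the same comparison 7 of 9 tested stem cell markers were lower too, and their part in the Hox values was not tested.

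Hoxa5 and Hoxb5 stayed past the threshold without any single library of either group and under all other alternatives run. The Hoxa2 call was lost without V3 (0.0607), with the adjusted p in brackets. The Hoxa3 call was lost without wt3 (0.0615), wt4 (0.0616), V3 (0.0934) and V9 (0.0557). The Hoxb4 call was lost without wt3 (0.0525), wt4 (0.114), V3 (0.111) and V9 (0.0861). The Hoxb6 call was lost without wt1 (0.0648), wt4 (0.0617), V3 (0.0986) and V3-2 (0.0956), and on log2(FPKM + 1) at 0.116. The Hoxb9 call rested on very few counts: it was lost without wt1 (0.0810), wt2 (0.0841), wt4 (0.0563), V3 (0.102), V3-2 (0.129) and V9 (0.0744), and on log2(FPKM + 1) at 0.554 and log2(FPKM + 0.1) at 0.21. Without V3, 2 of the 15 genes were called, and without wt4, 3. In the other direction, Hoxa7 passed without V9 (0.0162) and on log2(FPKM + 1) (0.023), and Hoxa6 passed with DESeq2 (0.0265).

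**Figure D3:**
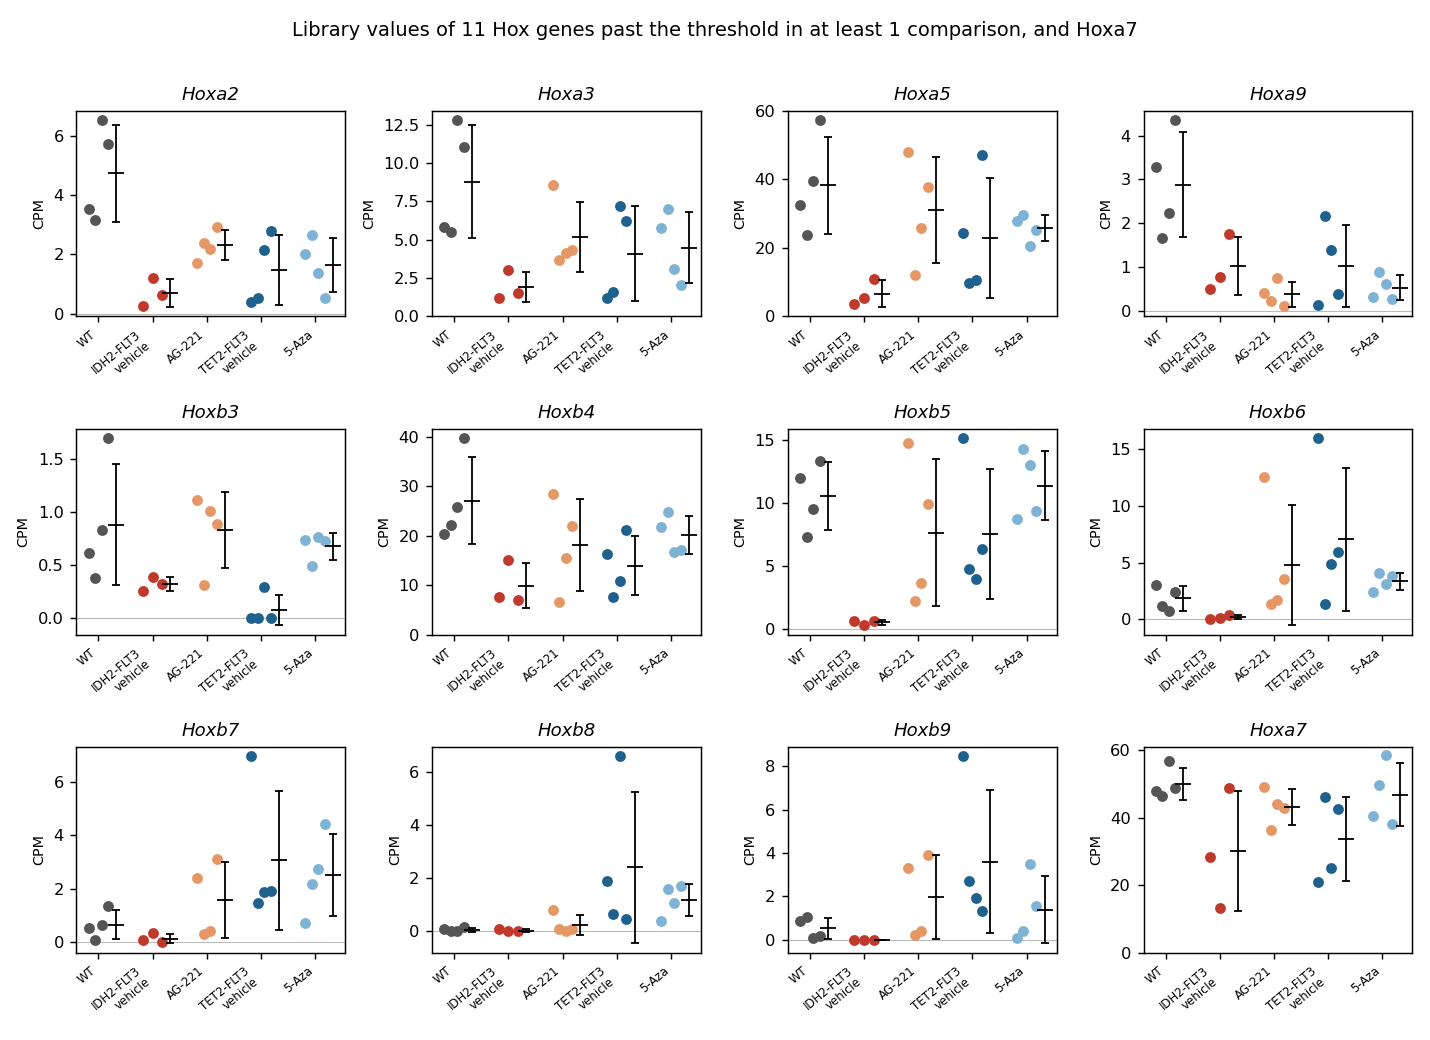
Points give the CPM of each library in the 5 groups for the 11 Hox genes past the threshold in at least 1 comparison and for Hoxa7, with the group mean and SD as a bar beside them (n = 4, and 3 for IDH2-FLT3 vehicle). Hoxb5 shows no overlap, with 0.337 to 0.675 CPM in IDH2-FLT3 vehicle and 7.32 to 13.4 CPM in WT, and Hoxb6 to Hoxb9 are high in V1 or V5-2 of the TET2-FLT3 vehicle group.

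Under AG-221, 4 of the 15 genes were higher than in IDH2-FLT3 vehicle cells and none lower: Hoxa5, Hoxb5, Hoxb6 and Hoxb9. Over all accessions 4.39% were called higher and 5.29% lower. The median log2 fold change of the 15 was 1.43 (the same with Hoxb9 at its bound), against -0.000226 over all tested. Both comparisons above share the 3 IDH2-FLT3 vehicle libraries, so their opposite signs are not independent. Hoxb5 had 14.8, 2.23, 3.70 and 9.96 CPM in AG1, AG8, AG12 and AG13 (log2 fold change 3.81 ± 0.67 (SE), adjusted p = 0.00400). All 4 were above the vehicle libraries, AG8 and AG12 were below the WT range, AG13 lay inside it and AG1 above it. Hoxa5 had 48.0, 12.2, 25.9 and 37.9 CPM (log2 fold change 2.21 ± 0.56 (SE), adjusted p = 0.0225), with the lowest library, AG8, just above V9. Hoxb6 had 12.6, 1.31, 1.68 and 3.52 CPM (log2 fold change 4.65 ± 1.04 (SE), adjusted p = 0.0147). Hoxb9 had 33, 3, 5 and 40 counts where vehicle libraries had none, at least 29.6-fold higher (adjusted p = 0.0232). For the 4 genes AG1 and AG13 were the high pair and AG8 and AG12 the low pair.

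Hoxb5 was called without each single library and lost its call only in the fit of the 2 compared groups alone, where no Hox gene passed (Hoxb5 0.07). The Hoxa5 call was lost without V3 (0.0922), V3-2 (0.0975) and AG1 (0.0529), the Hoxb6 call without V3 (0.0653) and V3-2 (0.0807), and the Hoxb9 call without V3 (0.0767) and V3-2 (0.104). On log2(FPKM + 1) Hoxb9 was at 0.146, on log2(FPKM + 0.1) at 0.0503, and with no filter on low values Hoxb6 was at 0.0988 on log2(FPKM + 1). Without V3, without V3-2, or without both V3-2 and V5-2, 1 of the 15 genes was called, while Hoxa7 was added without V9 (0.046). The other 11 did not pass: Hoxb7 had 2.42, 0.308, 0.421 and 3.13 CPM (log2 fold change 3.22 ± 1.09 (SE), adjusted p = 0.0628), and Hoxb2 and Hoxa9 had estimates below 0, at -0.13 and -1.41.

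Against WT, AG-221 cells had 1 Hox gene past the threshold, Hoxa9, which was lower, beside 1.67% of all accessions called lower and 1.04% higher. Hoxa9, the classical leukaemia Hox gene, whose level may be undercounted for the shared exons described above, had 43, 22, 27 and 54 counts in WT and 4, 3, 9 and 1 counts in AG1 to AG13, or 3.29, 1.66, 2.23 and 4.35 against 0.403, 0.231, 0.758 and 0.0977 CPM (log2 fold change -2.91 ± 0.76 (SE), adjusted p = 0.0421). Every AG-221 library was below every WT library. The call was lost without wt1 (0.0975), wt2 (0.0513), wt3 (0.0745), wt4 (0.131), AG1 (0.0826), AG8 (0.123) and AG13 (0.118). In IDH2-FLT3 vehicle the gene had 0.506, 0.769 and 1.76 CPM, with V9 inside the WT range. Of the tested Hoxa genes Hoxa9 alone had an estimate below 0 for AG-221 against vehicle. In 5-Aza it had 0.324, 0.889, 0.607 and 0.271 CPM, again below every WT library (log2 fold change -2.44 ± 0.73 (SE), adjusted p = 0.0950).

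TET2-FLT3 vehicle cells had 1 Hox gene lower and 1 higher than WT, beside 5.71% of accessions lower and 4.43% higher. With 15 genes tested, these counts are near the background, and the genes below are single members. Hoxb8, which blocks myeloid differentiation when forced on in mouse progenitors, had 1, 0, 0 and 2 counts in WT and 14, 10, 161 and 5 counts in V1, V5, V5-2 and V19. On the CPM scale that was 0.0766, 0, 0 and 0.161 against 1.91, 0.675, 6.60 and 0.480 CPM (log2 fold change 5.17 ± 1.18 (SE), adjusted p = 0.00988). All 4 mutant libraries were above all WT libraries, and V5-2 was the highest. Summed over libraries this was 190 against 3 counts, a depth-scaled ratio of 56.5 with an exact 95% interval of 19.1 to 276.5 that covers counting error only. V5-2 held 161 of the 190, and without it the ratio was 15.1 with an interval of 4.68 to 77.4. The call held without each single library, and was lost on log2(FPKM + 1) with no filter on low values (0.102). Hoxb3 had 8, 5, 10 and 21 counts in WT and 0, 0, 7 and 0 in the mutant libraries, 0.613, 0.377, 0.826 and 1.69 against 0, 0, 0.287 and 0 CPM (log2 fold change -3.03 ± 0.84 (SE), adjusted p = 0.0284). The Hoxb3 call was lost without wt3 (0.0577), wt4 (0.123), V1 (0.0548) and V5 (0.0582), and also with both of its accessions summed (0.0547). Its second accession held 0, 0, 2 and 7 counts in V1, V5, V5-2 and V19.

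The neighbours of Hoxb8 had estimates above 0 that did not pass. Hoxb6 had 16.0, 1.35, 4.88 and 5.95 CPM in V1, V5, V5-2 and V19 (log2 fold change 1.91 ± 0.77 (SE), adjusted p = 0.112), Hoxb7 6.95, 1.49, 1.89 and 1.92 CPM (log2 fold change 2.18 ± 0.87 (SE), adjusted p = 0.113) and Hoxb9 8.45, 2.70, 1.93 and 1.34 CPM (log2 fold change 2.70 ± 1.06 (SE), adjusted p = 0.108). In all 4 of these central to posterior Hoxb genes the highest library was V1 or V5-2, and for Hoxb7 to Hoxb9 every mutant library was above every WT library. The 7 Hoxa genes had estimates from -1.66 to -0.57, none past the threshold. With DESeq2 5 of the 15 genes passed, with Hoxb6, Hoxb9 and Hoxa2 added (adjusted p 0.046, 0.044 and 0.0257). Hoxa2 also passed without V19 (0.0427).

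**Figure D4:**
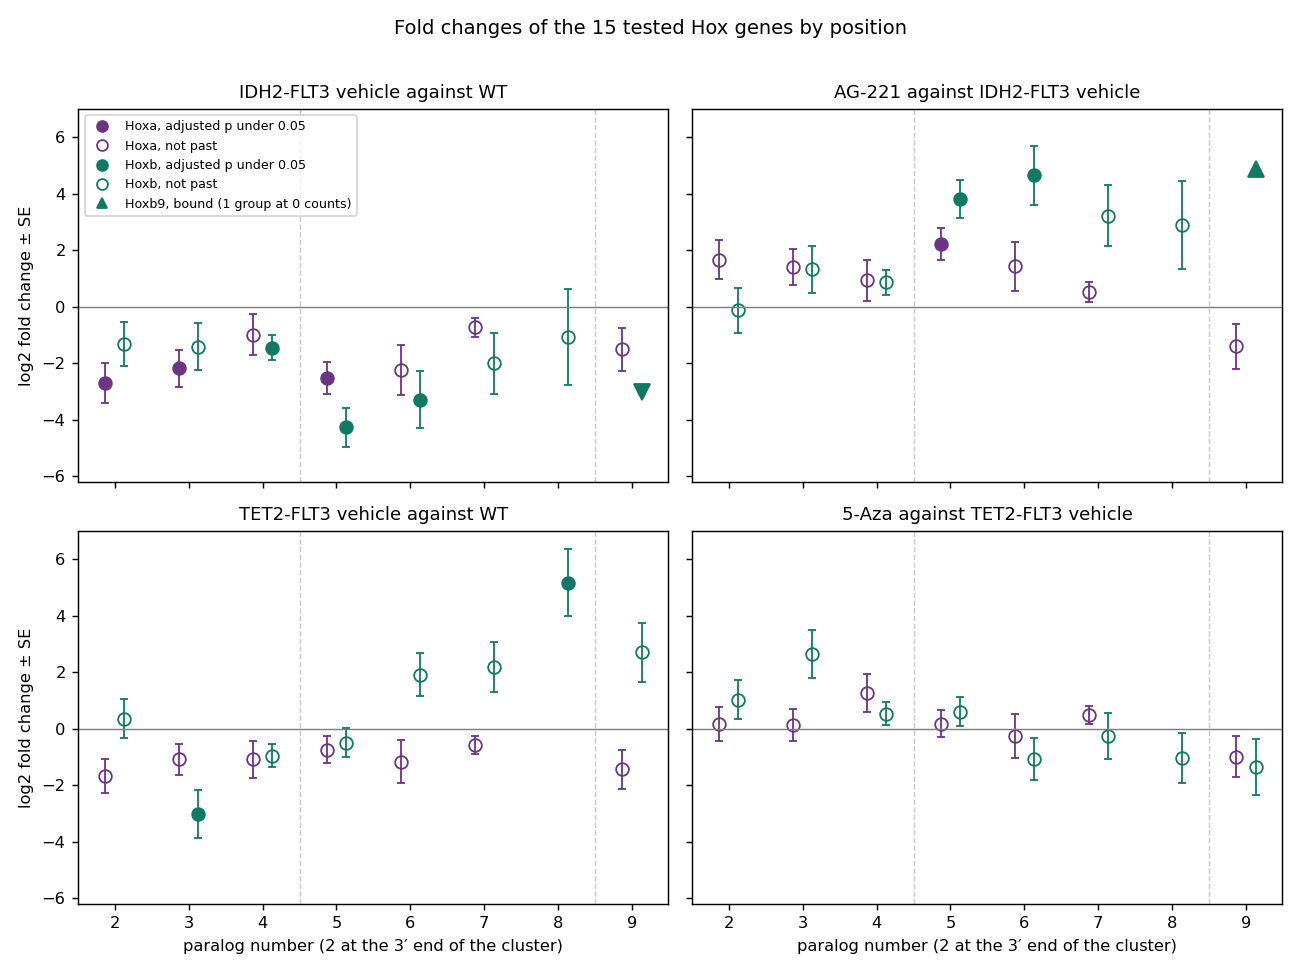
Log2 fold changes of the 15 tested Hox genes with their SE, by paralog number, in 4 comparisons, with Hoxa and Hoxb in separate colours, filled where the adjusted p was under 0.05 and dashed lines between anterior (1 to 4), central (5 to 8) and posterior (9 to 13) paralogs. Triangles put Hoxb9 at its bound where the IDH2-FLT3 vehicle group had 0 counts. All 15 points are below 0 in IDH2-FLT3 vehicle against WT, and Hoxb6 to Hoxb9 are above 0 in TET2-FLT3 vehicle against WT.

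5-Aza changed no Hox gene past the threshold against TET2-FLT3 vehicle, where 1.45% of accessions were lower and 0.431% higher (1 of the 15 had an unadjusted p under 0.05, with 12.5% of all accessions). Estimates ran from -1.36 for Hoxb9 to 2.65 for Hoxb3. Hoxb3 had 0.728, 0.485, 0.759 and 0.722 CPM in AZ10, AZ11, AZ16 and AZ17, above all 4 vehicle libraries (log2 fold change 2.65 ± 0.85 (SE), adjusted p = 0.139), and passed without V5-2 (0.016). Hoxb8 had 0.404, 1.62, 1.06 and 1.71 CPM and Hoxb2 4.93, 5.82, 4.02 and 5.95 CPM. Against WT no gene passed either, beside 1.1% lower and 0.617% higher (4 with an unadjusted p under 0.05, and 16.1% of all accessions), though every 5-Aza library was above every WT library for Hoxb8 (log2 fold change 4.13 ± 1.18 (SE), adjusted p = 0.0792, a ratio of 20.1 with a counting interval of 6.53 to 100.1) and Hoxb2 (log2 fold change 1.38 ± 0.69 (SE), adjusted p = 0.327). With DESeq2, Hoxb8 (0.0235) and Hoxa9 (0.0176) passed against WT.

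Setting the vehicle arms of the lines side by side, 5 genes were lower in IDH2-FLT3 than in TET2-FLT3 cells and none higher, beside 2.35% of accessions lower and 1.93% higher. They were the run Hoxb5 to Hoxb9. In the same comparison 8 of 10 tested granulocyte-monocyte progenitor markers were higher and 3 of 9 stem cell markers lower in IDH2-FLT3, and their part was not tested. Hoxb5 had 0.675, 0.337 and 0.641 CPM in IDH2-FLT3 and 15.1, 4.79, 3.98 and 6.33 CPM in TET2-FLT3 vehicle libraries (log2 fold change -3.77 ± 0.67 (SE), adjusted p = 0.00378). The corresponding statistics were log2 fold change -5.20 ± 1.06 (SE), adjusted p = 0.00747 for Hoxb6, log2 fold change -4.17 ± 1.11 (SE), adjusted p = 0.0355 for Hoxb7 and log2 fold change -6.23 ± 1.46 (SE), adjusted p = 0.0175 for Hoxb8. Hoxb9 was at least 54.3-fold lower (adjusted p = 0.0152). For Hoxb8 the IDH2-FLT3 libraries held 1 count against 190, a depth-scaled TET2-FLT3 to IDH2-FLT3 ratio of 150.6 with an exact 95% counting interval of 26.7 to 5979. Without V5-2 that ratio was 40.2, with an interval of 6.66 to 1642. In none of the 5 did a library of one line reach the other. No Hoxa gene passed: their estimates ran from -1.78 for Hoxa5 (adjusted p = 0.0681) to 0.10 for Hoxa4. Hoxa5 passed without V9 (0.0202), V5 (0.0331) or V5-2 (0.0225), and Hoxb3, higher in IDH2-FLT3, without V5-2 (0.0211). In the fit of these 2 groups alone no gene passed. The Hoxb6 call was lost without V3 (0.0585), the Hoxb7 call without V3 (0.195), V3-2 (0.0531), V9 (0.0558), V1 (0.0950) and V19 (0.0512), the Hoxb8 call without V3 (0.0695) and V3-2 (0.0863) and the Hoxb9 call without V3 (0.0809) and V3-2 (0.0684). On log2(FPKM + 1) the Hoxb8 and Hoxb9 calls were lost (0.128 and 0.0629), and with no filter on low values those of Hoxb6 and Hoxb7 as well (0.0785 and 0.125). Without V3, 1 of the 15 genes was called, without V3-2 2, and without both V3-2 and V5-2 1.

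The responses to the drugs were compared as the difference of AG-221 against its vehicle and 5-Aza against its vehicle. No Hox gene passed, beside 0.0254% of accessions lower and 0.203% higher, and 6 of 15 had an unadjusted p under 0.05 (15.5% of all accessions). The lowest adjusted p were 0.0560 for Hoxb6 (difference 5.71 ± 1.27), 0.0954 for Hoxb9 and 0.0972 for Hoxb5 (difference 3.20 ± 0.81). These 3 passed with DESeq2 (0.000302, 0.00101 and 0.0063). Without V9, 4 genes passed, without V5-2 3, and without V5 1.

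The Hoxc cluster, whose genes pattern the trunk and limbs and are mostly quiet in this compartment, was read almost wholly in 1 library. AG8 held 1180 of its 1327 counts, or 88.9%. Hoxc10 had 635 counts in AG8 (48.9 CPM, 27.8 FPKM) and at most 1 in the other AG-221 libraries. Hoxc8 had 384 counts in AG8, 19 in AG12, 1 in AG1 and 0 in AG13. Hoxc9 had 91 and 10 counts in AG8 and AG12 and none in AG1 and AG13. Hoxc5, Hoxc4 and Hoxc6 had 32, 21 and 17 counts in AG8, and Hoxc6 had 28 in AG12. Hoxc11, Hoxc12 and Hoxc13 had 0 in AG8. Among the WT libraries the Hoxc sum was 2 to 13 counts, and V9 was the only IDH2-FLT3 vehicle library with Hoxc10, at 9 counts. By summed FPKM, AG8 held 48.5 from Hoxc, 32.7 from Hoxa and 6.38 from Hoxb. The genes flanking the cluster were not higher in AG8 than in all other AG-221 libraries: Smug1 had 35.8, 23.7, 28.0 and 36.0 CPM and Calcoco1 60.4, 55.6, 53.6 and 37.5 CPM in AG1, AG8, AG12 and AG13. The 9 listed stromal markers, genes of a cell type in which Hoxc genes can be active, were also read. They summed to 0.503, 2.85, 1.94 and 10.4 CPM in AG1, AG8, AG12 and AG13. The highest sum was thus in AG13, which had 1 Hoxc count. Among single markers, Col3a1 had 7 counts in AG8 and 0 in the other 3. Pdgfra, Pdgfrb and Dcn were at 0 in all 19 libraries and cannot be read. The part of stromal cells in the AG8 counts was not tested. Since 1 library carries these counts, no statement on AG-221 rests on them.

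Among noncoding RNAs of the Hoxa cluster, Mira, Hotairm1, Hoxaas2, Hoxaas3 and Mir196b were tested. Of these, 3 were lower in IDH2-FLT3 vehicle than in WT, beside 10.4% of all accessions. Mira, a long noncoding RNA between Hoxa6 and Hoxa7 that is known in mouse embryonic stem cells for recruiting MLL, had 53.6, 40.5, 60.7 and 78.3 CPM in the WT libraries. Whether its counted exons overlap those of Hoxa6 or Hoxa7 was not checked, so shared reads cannot be set apart. Its level was 15.8, 17.1 and 32.6 CPM in V3, V3-2 and V9 and 68.0, 31.6, 44.0 and 66.4 CPM in AG1, AG8, AG12 and AG13. It was lower in IDH2-FLT3 vehicle than in WT (log2 fold change -1.42 ± 0.34 (SE), adjusted p = 0.00625) and higher with AG-221 (log2 fold change 1.27 ± 0.34 (SE), adjusted p = 0.0270), the latter lost without V3 (0.106), V3-2 (0.121), AG1 (0.0616) and AG13 (0.0602). The antisense Hoxaas3, which shares exon bases with Hoxa3, was lower in IDH2-FLT3 vehicle (log2 fold change -2.36 ± 0.69 (SE), adjusted p = 0.0209), with 1.84, 2.04, 2.48 and 2.66 CPM in WT and 0.0843, 0.337 and 0.882 CPM in V3, V3-2 and V9, and lost its call without wt4 (0.0503), V3 (0.0930) and V3-2 (0.0835). Reads over the Mir196b hairpin, the source of miR-196b-5p, fell from 1.07, 1.59, 1.82 and 2.90 CPM in WT to 0.253, 0.0962 and 0.641 CPM (log2 fold change -2.50 ± 0.70 (SE), adjusted p = 0.0162), a call lost without wt4 (0.0532), V3 (0.0683) and V3-2 (0.0858). With AG-221 it had 0.604, 1.54, 1.01 and 1.66 CPM (log2 fold change 1.89 ± 0.69 (SE), adjusted p = 0.07999). Mir196a-1, in the Hoxb cluster, had 14 counts in V5-2 and none in the other 18 libraries, and V5-2 is also where Hoxb8 (161 counts) and Hoxa10 (17 counts) were highest. Hotairm1 and Hoxaas2 passed no test, Hottip had no counts, and Hotair had at most 0.101 CPM.

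Hox proteins bind DNA with PBX and MEIS cofactors. Of 9 listed cofactors 5 were tested. Pbx4 was lower in IDH2-FLT3 vehicle than in WT, with 37.5, 28.9, 34.7 and 41.5 CPM in WT and 12.99, 17.8 and 19.8 CPM in V3, V3-2 and V9, groups that did not overlap (log2 fold change -1.08 ± 0.32 (SE), adjusted p = 0.0224). The call was lost without wt4 (0.0738), V3 (0.102) and V3-2 (0.0557). Meis1, which is listed under 2 accessions, had 6.20, 5.59, 4.46 and 5.48 CPM in WT and 1.10, 0.577 and 3.13 CPM in V3, V3-2 and V9 (log2 fold change -1.77 ± 0.82 (SE), adjusted p = 0.131). Pbx3 had too few counts to be tested. No cofactor passed in TET2-FLT3 vehicle or 5-Aza comparisons.

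Of 22 listed MLL and Trithorax regulators, which keep Hox loci active, 14 were tested: 2 were lower and 1 higher in IDH2-FLT3 vehicle, and 3 were lower in TET2-FLT3 vehicle, against WT. Over all accessions 10.4% were lower and 10.1% higher in the first comparison, so those counts are near the background, and 5.71% were lower in the second. Kmt2a, encoding MLL itself, had 462, 407, 536 and 536 CPM in WT, against 201, 229 and 267 CPM in V3, V3-2 and V9, and 109.6, 227, 186 and 374 CPM in V1, V5, V5-2 and V19. It fell in both lines (log2 fold change -1.06 ± 0.33 (SE), adjusted p = 0.0279 and log2 fold change -1.11 ± 0.30 (SE), adjusted p = 0.0248), with the first call lost without wt3 (0.0645), wt4 (0.0652), V3 (0.106) and V3-2 (0.0685) and the second without wt3 (0.0666) and wt4 (0.0668). Mllt3, a partner of MLL that maintains human stem cells, fell too (log2 fold change -1.71 ± 0.41 (SE), adjusted p = 0.00649 in IDH2-FLT3 and log2 fold change -1.17 ± 0.36 (SE), adjusted p = 0.0442 in TET2-FLT3), with the latter lost without wt1 (0.0810), wt2 (0.06), wt3 (0.121), wt4 (0.0903), V1 (0.0853) and V5-2 (0.0975). Ash1l was lower in TET2-FLT3 vehicle (log2 fold change -1.21 ± 0.31 (SE), adjusted p = 0.0178, lost without wt4 (0.0502)). Rbbp5, of the MLL core complex, was higher in IDH2-FLT3 vehicle (log2 fold change 0.73 ± 0.24 (SE), adjusted p = 0.0369, lost without wt1 (0.0718), wt2 (0.0586), wt3 (0.110), V3 (0.138) and V3-2 (0.106)). No listed regulator passed under either drug against its vehicle. The median of the 14 was -0.30 in IDH2-FLT3 and -0.33 in TET2-FLT3.

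Of 31 listed Polycomb genes, which keep Hox loci silent, 25 were tested, and most did not pass in any comparison. Against WT, 1 was lower in IDH2-FLT3 vehicle (10.4% of all accessions). In TET2-FLT3 vehicle 1 was lower and 1 higher (5.71% and 4.43%), and in 5-Aza 1 was lower (1.1%). With AG-221 1 was lower and 1 higher than with vehicle (5.29% and 4.39%). These counts do not set the list apart, and the genes below are single members. Cbx7, the chromobox subunit that favours self-renewal of human stem cells, had 61.2, 43.9, 74.2 and 91.3 CPM in WT and 12.1, 21.0 and 19.6 CPM in V3, V3-2 and V9, groups that did not overlap. With AG-221 its values ran 35.5 to 63.1 CPM, with 5-Aza 21.0 to 33.3 CPM, and in V1, V5, V5-2 and V19 16.0 to 46.2 CPM. It was lower than in WT in IDH2-FLT3 vehicle (log2 fold change -1.94 ± 0.36 (SE), adjusted p = 0.00122), a call that held under every alternative run. It was also lower in TET2-FLT3 vehicle (log2 fold change -1.21 ± 0.32 (SE), adjusted p = 0.0219, lost without wt3 (0.0601), wt4 (0.102) and V5 (0.0533)) and in 5-Aza (log2 fold change -1.27 ± 0.32 (SE), adjusted p = 0.0465, lost without wt1 (0.0844), wt3 (0.127), wt4 (0.178), AZ10 (0.126), AZ11 (0.0896), AZ16 (0.152) and AZ17 (0.0986)). With AG-221 it was higher than with vehicle (log2 fold change 1.48 ± 0.36 (SE), adjusted p = 0.0197, lost without V3 (0.0869) and V3-2 (0.0610)). Bap1 was higher in TET2-FLT3 vehicle (log2 fold change 0.69 ± 0.21 (SE), adjusted p = 0.0407, lost without wt1 (0.106), wt2 (0.0820), wt3 (0.0802), wt4 (0.0848), V1 (0.0722) and V5-2 (0.0924)), and Phf19 lower with AG-221 (log2 fold change -1.19 ± 0.37 (SE), adjusted p = 0.0489, lost without V3 (0.106), V3-2 (0.307), AG1 (0.0739), AG8 (0.0751), AG12 (0.0747) and AG13 (0.115)). Bmi1 had 61.2, 53.2, 73.6 and 61.8 CPM in WT and 25.0, 47.0 and 41.9 CPM in IDH2-FLT3 vehicle (log2 fold change -0.72 ± 0.28 (SE), adjusted p = 0.0731). Ezh2 is listed under 2 accessions and had too few counts to be tested.

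Of 19 listed genes known as targets of HOXA9 and MEIS1, 15 were tested: 5 were lower and 2 higher in IDH2-FLT3 vehicle, and 3 lower and 3 higher in TET2-FLT3 vehicle, against WT. The shares over all accessions were 10.4% and 10.1%, and 5.71% and 4.43%. Trib2, a pseudokinase gene that causes myeloid leukaemia in mice when forced on, was lower in both lines (log2 fold change -6.16 ± 1.02 (SE), adjusted p = 0.000479 and log2 fold change -6.66 ± 0.93 (SE), adjusted p = 0.000241), and stayed lower than WT with AG-221 (log2 fold change -3.59 ± 0.77 (SE), adjusted p = 0.0109) and 5-Aza (log2 fold change -3.37 ± 0.75 (SE), adjusted p = 0.0233, lost without wt1 (0.0514), wt3 (0.0822), wt4 (0.0619), AZ11 (0.0879), AZ16 (0.0626) and AZ17 (0.0923)). Tal1, a regulator of blood stem cells and erythroid cells, was lower in both (log2 fold change -4.40 ± 0.95 (SE), adjusted p = 0.00331 and log2 fold change -2.95 ± 0.76 (SE), adjusted p = 0.0188, the latter lost without wt3 (0.0562)). Tal1 had 3 counts in all in IDH2-FLT3 vehicle against 82 in WT, a WT to IDH2-FLT3 ratio of 24.3 with a counting interval of 8.02 to 120.1. Dnajc10, a chaperone gene, was higher in IDH2-FLT3 (log2 fold change 1.05 ± 0.24 (SE), adjusted p = 0.00512), while Ccl3, a chemokine gene, was lower (log2 fold change -2.40 ± 0.62 (SE), adjusted p = 0.0105). In TET2-FLT3, Igf1r was lower (log2 fold change -1.93 ± 0.38 (SE), adjusted p = 0.00335) and Pim1 higher (log2 fold change 2.24 ± 0.51 (SE), adjusted p = 0.00910). The direction thus differed among listed targets of the same factors.

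Of 21 listed neighbours of the clusters 9 were tested, and none was called lower in the 8 comparisons. At a background of at most 10.4% lower calls, 0 of 9 is no result about them. Skap2, next to the 3′ end of Hoxa, had 185, 216, 163 and 164 CPM in WT, against 387, 223 and 376 CPM in V3, V3-2 and V9, and 451, 447, 269 and 232 CPM in V1, V5, V5-2 and V19, and was higher in both (log2 fold change 0.85 ± 0.28 (SE), adjusted p = 0.0386 and log2 fold change 0.94 ± 0.27 (SE), adjusted p = 0.0301), with the first call lost without wt1 (0.0753), wt3 (0.0965), wt4 (0.0874), V3 (0.143) and V9 (0.0980) and the second without wt1 (0.0686), wt3 (0.0887), wt4 (0.0761), V1 (0.0823) and V5 (0.0714). Hibadh, beyond the 5′ end, had 104, 116, 123 and 111 CPM in WT and 85.3, 112 and 114 CPM in IDH2-FLT3 vehicle (log2 fold change -0.13 ± 0.28 (SE), adjusted p = 0.763). Atp5g1, on the 5′ side of Hoxb and listed under 2 accessions, was called higher in both lines at 0.0806 to 1.76 CPM. The IDH2-FLT3 call was lost without wt3 (0.0574), wt4 (0.0576) and V3-2 (0.114) and with accessions summed (0.0505), and the TET2-FLT3 call without wt1 (0.0896), wt2 (0.0581), wt3 (0.112), wt4 (0.116) and V5-2 (0.144) and with accessions summed (0.127). Mtx2, on the 3′ side of Hoxd, passed no test.

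Markers of other stages moved in the same comparisons. Over all accessions 10.4% were called lower and 10.1% higher in IDH2-FLT3 vehicle, and 5.71% lower in TET2-FLT3 vehicle, against WT. Against vehicle, 4.39% were called higher and 5.29% lower with AG-221, and 0.431% higher with 5-Aza. Of 10 listed stem cell markers 9 were tested. Of these 7 were lower in IDH2-FLT3 vehicle than in WT, with summed levels of 898 to 1385 CPM in WT and 38.0 to 171 CPM in IDH2-FLT3 vehicle. With AG-221 the sum was 351 to 632 CPM, and 5 were higher than with vehicle. It was 296 to 542 CPM in the TET2-FLT3 vehicle arm, where 2 were lower than in WT, and 495 to 870.4 CPM with 5-Aza. Of 10 tested granulocyte-monocyte progenitor markers 9 were higher in IDH2-FLT3 vehicle than in WT, with summed levels of 20603 to 109397 against 2287 to 13445 CPM, and 5 were lower with AG-221 than with vehicle. All 8 erythroid and all 7 tested B-cell markers were lower in both lines than in WT. Of the erythroid markers 3 were higher with AG-221 and 5 with 5-Aza than with vehicle. Of 7 T and NK cell markers 4 were lower in IDH2-FLT3 vehicle and 2 in TET2-FLT3 vehicle than in WT. With AG-221 4 were higher than with vehicle. The summed level of these T and NK cell markers did not separate the groups. It ran from 882 to 1364 CPM in WT, 482 to 1900 CPM in IDH2-FLT3 vehicle and 257 to 2349 CPM in TET2-FLT3 vehicle. By summed level, V9 held the most stem cell marker RNA of the IDH2-FLT3 vehicle libraries, at 171 CPM. It also held the most Hox RNA, at 75.9 CPM. The clusters differed in this: the Hoxa sum was highest in V9, at 65.98 CPM against 34.4 CPM in V3 and 26.39 CPM in V3-2. The Hoxb sum was lowest in V9, at 8.739 CPM against 9.023 CPM in V3 and 17.98 CPM in V3-2. The part of these marker shifts in the Hox values was not tested.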

How the data were processed

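Poly(A) RNA of 19 sorted LSK samples was sequenced after SMARTer Ultra Low Input amplification, per the labels' protocols. Reads were aligned to mm9 with STAR 2.4.0f1 and counted with featureCounts of Subread 1.4.5-p1, per the submitters' processing notes. The authors deposited raw counts per RefSeq accession, and beside them FPKM values, which divide by length and library size. Table columns were matched to groups by name, and no column of values was left unused.

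CPM is the count divided by the library total and TMM factor (0.761 to 1.22). The 189 accessions that matched no gene name, with 3.47% of counts, stayed in the totals and tests. Tests used edgeR 4.0.16 quasi-likelihood fits of 5 group means (R 4.3.3, limma 3.58.1) on the 11830 accessions kept by filterByExpr, with Benjamini-Hochberg adjustment over all of them and a threshold of 0.05. The biological coefficient of variation was 42.9% on 14 residual degrees of freedom. The steps were checked on simulated data. For 5-Aza against TET2-FLT3 vehicle, 10.4% of simulated 2-fold changes were recovered, 47.8% of 4-fold and 78.8% of 8-fold changes. A gene that did not pass may therefore still differ. Alternatives included DESeq2 1.42.0 and limma-trend on log2(FPKM + 1).

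The Hox members and all gene lists were chosen with earlier results of these data known. The text names every Hox gene called in at least 1 comparison, the highest Hox gene of each group, up to 4 called members per list with the smallest p, and a few fixed regulators and neighbours. Genes named outside that rule were chosen after their values were seen. Some results on single genes are not reported here.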

Additional observations from a re-analysis of the deposited data

Results flagged for a closer look

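Of 84 checks for a sample far from the rest of its group, over 22 Hox genes with enough counts, 9 were positive. The rule takes about 1 in 20 as its share by chance. Genes read in the same library are not independent checks, so these numbers do not show an excess over chance. Library AG8 accounted for 4 of them among the AG-221 libraries: Hoxc5 at 2.464 CPM, Hoxc8 at 29.57 CPM, Hoxc9 at 7.006 CPM and Hoxc10 at 48.89 CPM. Hoxa3 stood out in AG1 at 8.556 CPM. In the TET2-FLT3 vehicle arm, Hoxb7 in V1 lay at 6.954 CPM and Hoxa10 in V5-2 at 0.6973 CPM. In AZ11, Hoxb3 was low at 0.4851 CPM, and in wt1 Hoxc5 was high at 0.7659 CPM. The Hoxb3 flag rests on few counts: 9, 6, 10 and 8 in AZ10, AZ11, AZ16 and AZ17. The second accession of Hoxb3 held 0, 5, 4 and 4 counts there and was not low in AZ11.

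Also flagged were the 5 genes already reported above as different between the vehicle arms of the lines by a test of that difference (edgeR). In the fit of the compared groups alone none of them passed, and the Hoxb7 call was lost without V1. The log2 fold changes of IDH2-FLT3 against TET2-FLT3 were -3.77 for Hoxb5, -5.20 for Hoxb6, -4.17 for Hoxb7 and -6.23 for Hoxb8. For Hoxb9 the fitted value was -8.53, which depends on the prior count because all IDH2-FLT3 vehicle libraries were at 0. Its bound is at least 54.3-fold lower.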

How the results depend on the processing

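No Hox estimate that was called changed sign under any alternative run. In IDH2-FLT3 vehicle against WT, 7 genes were called, and leaving out 1 library gave 2 to 6. In TET2-FLT3 vehicle against WT, 2 genes were called: 1 with no filter on low counts, with accessions summed per gene or with only the compared groups fitted, 5 with DESeq2 and on log2(FPKM + 1), 4 on log2(FPKM + 0.1), and 1 to 3 without 1 library. In AG-221 against its vehicle, 4 became 8 with no filter, 0 with the compared groups alone, 2 on unfiltered log2(FPKM + 1), 1 without both V3-2 and V5-2, and 1 to 5 without 1 library. The genes added with no filter were Hoxb7, Hoxc8, Hoxc9 and Hoxc10. Library AG8 held 93.7% of all Hoxc8 counts, 88.3% of Hoxc9 and 97.8% of Hoxc10. In 5-Aza against its vehicle, 0 became 1 without both V3-2 and V5-2 and 0 to 1 without 1 library. In AG-221 against WT, 1 became 4 with no filter and 0 to 1 without 1 library. The genes added with no filter were again Hoxc8, Hoxc9 and Hoxc10, so no statement on AG-221 rests on these added calls. In 5-Aza against WT, 0 became 1 with no filter, on log2(FPKM + 0.1) and on unfiltered log2(FPKM + 1), 2 with DESeq2 and on log2(FPKM + 1), and 4 with the compared groups alone. Between the vehicle arms, 5 became 0 with the compared groups alone, 3 on log2(FPKM + 1), 1 on unfiltered log2(FPKM + 1), 1 without both V3-2 and V5-2, and 1 to 7 without 1 library. In the difference of drug responses, 0 became 3 with no filter and with DESeq2, and 0 to 4 without 1 library. The cause of these changes was not tested. Leaving out both V3-2 and V5-2 was chosen after seeing the data.

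No paired analysis was possible because the table columns of the mutant groups carry no replicate number of the labels. Depth limits the genes with few counts: Hoxb3, Hoxb8, Hoxb9 and the Hoxc and Hoxd genes outside AG8.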
